A study of Mus musculus with 8 samples.

Results

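B lymphocyte nuclei (BC nuclei) were the nuclei of mouse kidney that held at least 1 unique molecular identifier (UMI, the tag of 1 captured transcript) of at least 2 of 5 B cell marker genes, Bank1, Pax5, Ms4a1, Cd79a and Cd79b. They numbered 110 of the 81391 nuclei that passed quality control (500 or more genes, 800 or more UMIs, and no more than 2% of UMIs from mitochondrial genes), or 0.135%. The nuclei were thus chosen by the UMI counts of these 5 genes in the same libraries, so their levels describe the choice and are not results, and every other gene of these nuclei is likewise given as a description, without a test. The nuclei were pooled over libraries, because single libraries held only 3 to 26 of them.

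Single-nucleus RNA-seq was done on the kidneys of 8 male mice, 2 in each of 4 groups, with 1 library per mouse. Ctrl mice carried the Bmal1lox/lox alleles of the clock gene Bmal1 (Arntl). cKOt mice, their littermates, had the genotype Bmal1lox/lox/Pax8-rtTA/LC-1, in which doxycycline switches on Cre recombinase in tubule cells under the Pax8 promoter. Both genotypes had a C57BL/6J background, received 2 mg/ml doxycycline from 8 weeks of age for 2 weeks, were kept in 12 h of light and 12 h of dark, and were sampled at ZT4 (light phase) or ZT16 (dark phase). The driver was chosen for renal tubules, so B cells are not the designed target of the deletion. The libraries held between 36548873 and 54500820 UMIs in 8758 to 10975 nuclei. Of 80565 distinct barcodes, 823 occurred in more than 1 library. Of the 110 BC nuclei 4 had such a barcode, and no barcode was shared by a pair of BC nuclei.

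B cells are the lymphocytes that carry and, as plasma cells, secrete antibodies. Their antigen receptor is a membrane antibody paired with the signalling chains that Cd79a and Cd79b encode, and the transcription factors Ebf1 and Pax5 set and keep B cell identity. In the kidney they are a small part of the resident and circulating leukocytes, and they also present antigen to T cells on MHC class II.

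Promoter sequences are shown for Bank1, the rule marker with the most UMIs, and for Cd22, one of the genes outside the rule with the highest ratios to the other nuclei, because each holds letters that EBF1 is known to bind. The sequences are from RefSeq on GRCm38.p6 and cover 250 bases before to 50 bases from the start of the gene, 5′ to 3′ on its strand. Capitals mark the match to CCCNNGGG (Bank1, chr3:136326017-136326316, minus strand) or to the longer palindrome, CCCNNGGG with a T before and an A after it (Cd22, chr7:30878979-30879278, minus strand).
Bank1: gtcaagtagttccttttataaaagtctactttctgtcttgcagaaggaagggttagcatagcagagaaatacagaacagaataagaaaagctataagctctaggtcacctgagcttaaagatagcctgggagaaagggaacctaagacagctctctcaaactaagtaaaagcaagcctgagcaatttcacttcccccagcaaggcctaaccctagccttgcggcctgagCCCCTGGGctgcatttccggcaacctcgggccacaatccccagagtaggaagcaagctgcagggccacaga
Cd22: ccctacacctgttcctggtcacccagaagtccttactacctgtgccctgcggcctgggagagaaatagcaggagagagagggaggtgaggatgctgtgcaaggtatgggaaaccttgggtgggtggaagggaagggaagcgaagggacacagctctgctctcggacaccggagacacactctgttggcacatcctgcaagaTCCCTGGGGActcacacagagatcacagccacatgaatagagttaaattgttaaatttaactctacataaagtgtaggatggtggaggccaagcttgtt
The CCCNNGGG match begins 21 bases before the start in Bank1 and 48 bases before it in Cd22. Both motifs read the same on the 2 strands, and every palindrome match is also a match of the shorter motif. Of 20 B cell genes (the 5 rule markers and 15 further identity genes), 15 were in the table. The palindrome was found in 1 of the 15 (Cd22) and in 0.904% of all 32851 promoters of the same length, and CCCNNGGG in 3 of the 15 (Bank1, Cd22 and Cd55) and in 13.7% of all. The octamer ATGCAAAT, known as a site of Oct factors and searched on both strands, was in none of the 15 and in 1.74% of all. Neither EBF1 motif was in this window of Pax5 (chr4:44710645-44710944, minus strand) or Cd79a (chr7:24897247-24897546, plus strand). A match is a description of letters and not a bound site, and no binding was measured. Likewise, a window without these exact letters is not shown to lack a site.

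Bank1, an adaptor of B cell receptor signalling, was the marker found in most of the nuclei, although 69 of the 110 also met the rule on the other 4 markers alone. Bank1 (ENSMUSG00000037922) had 830 UMIs in 106 of the 110 nuclei (96.4%), and Pax5 (ENSMUSG00000014030) 304 UMIs in 93 (84.5%). The gene of the surface protein CD20, Ms4a1 (ENSMUSG00000024673), had 76 UMIs in 46 nuclei (41.8%), Cd79a (ENSMUSG00000003379) 61 UMIs in 45 (40.9%) and Cd79b (ENSMUSG00000040592) 33 UMIs in 27 (24.5%). The most common combination was Bank1 with Pax5 alone, in 27 nuclei. As CPM, the counts of a gene scaled to 1000000 UMIs of the pooled nuclei and not divided by gene length, Bank1 was at 3312 (95% exact Poisson interval 3091 to 3545) and Pax5 at 1213 (1081 to 1357). Such intervals, and the binomial ones for shares, cover counting error only. The nuclei called T/NK-like (at least 2 of Cd3e, Cd3g, Cd247, Themis and Nkg7) numbered 307. Those called myeloid-like (at least 2 of Csf1r, C1qa, C1qb, C1qc and Adgre1) numbered 1171. BC nuclei, and nuclei that also met the rule of another class, proximal tubule (below) included, were left out of both classes. Pax5 had 0 UMIs in both, whereas Bank1 was at 136 CPM in the myeloid-like nuclei. A nucleus with Pax5 and another rule marker could not be in these classes, so the 0 for Pax5 is partly set by the choice.

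Free RNA in droplets can give a nucleus UMIs of a gene it does not express. In proximal tubule nuclei (PCT-like, at least 4 of Slc5a12, Slc34a1, Slc22a6, Slc7a7 and Lrp2), which should lack the 5 markers, 0.327% of nuclei had a UMI of Bank1, 0.0765% of Pax5, 0.709% of Ms4a1, 0.0918% of Cd79a and 0.0816% of Cd79b. In these shares, the thinned ones and those of light chains below, the 5 BC nuclei that met the PCT-like rule were kept. Without them Bank1 was found in 0.301%, Pax5 in 0.0561% and Ms4a1 in 0.699%. The medians were 5740 UMIs in PCT-like and 1653 UMIs in BC nuclei. After each nucleus was thinned to 800 UMIs, Bank1 was found in 87.3% of BC nuclei and 0.0714% of PCT-like nuclei, and Ms4a1 in 25.5% and 0.0867%. Since these genes chose the BC nuclei, their shares had to exceed this background, and thinning the chosen nuclei does not undo the choice.

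The nuclei just outside the rule differed from those just inside it. With 1 marker there were 1225 nuclei, with 2 there were 45, with 3 there were 37, with 4 there were 24 and with 5 there were 4. Ebf1, which the rule did not use, was found in 29.0% of nuclei with 1 marker (352 CPM) and in 80.0% of those with 2, against 33.9% (399 CPM) with 0 markers. At least 3 of 15 identity genes that were not in the rule (among them Cd22, Fcmr, Fcrl1, Ly6d, Cd37, Cd72, Blk, Fcer2a, Cr2, Ralgps2, Bach2, Btla, Fcrla and Cd55) had a UMI in 2.45% of nuclei with 0 markers, 4.82% with 1, 73.3% with 2, 97.3% with 3 and 87.5% with 4. By these measures nuclei with 1 marker lay nearer to those with 0 than to those with 2, although their median of 3622 UMIs was above that of nuclei with 2 markers (1564 UMIs). Other genes set them further from nuclei with 0 markers. Ighm was found in 0.899% of nuclei with 0 markers, 10.0% with 1 and 51.1% with 2, and Cd74 in 6.30%, 26.2% and 55.6%. However, the myeloid-like rule was met by 220 of the 1225 nuclei with 1 marker and by 1060 of the 80056 with 0. In myeloid-like nuclei Ighm was found in 31.4% and Cd74 in 81.1%. The part of myeloid-like nuclei in this rise was not tested. Most nuclei with 1 marker had Bank1 (510, of which 202 met the myeloid-like rule) or Ms4a1 (502). The Ms4a1 nuclei numbered 22 and 19 in the first replicates of Ctrl ZT4 and cKOt ZT4 and 69 to 92 in each of the other 6 libraries.

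The label was then held against the nearest nuclei in 50 principal components computed without the 5 markers. Of the 2200 neighbours of the BC nuclei, 20 for each, 1366 (62.1%) were BC nuclei, while 4.77% were nuclei with 1 marker, 4.41% PCT-like, 2.82% myeloid-like and 0.364% T/NK-like. Only 19.7% came from the same library. A BC nucleus had a median of 16 BC nuclei among its 20 neighbours, and 74 of the 110 had at least 10. By this measure the label fitted most members, but 19 of the 110 had no BC nucleus among their neighbours. The lncRNA Gm31243, antisense to Bank1, was not removed with the 5 markers and could enter the search if it was among the variable genes.

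Those 19 nuclei stood apart in several measures. Of them 16 had exactly 2 markers, 9 had at least 3 identity genes, 5 also met the rule of another cell type and 3 were called doublets. Their median was 3743 UMIs, against 1559 in the other 91, so that they held 33.7% of all UMIs of the BC nuclei. Since the neighbours were found on genes that include those of B cells, and since most of these nuclei were chosen on 2 markers at higher depth, the values that follow describe the split and do not test it. Their UMIs were poorer in B cell transcripts and richer in Malat1, the most abundant nuclear lncRNA. Bank1 was at 758 CPM in the 19 and 4609 in the 91, Ebf1 at 889 and 6312, Bach2 at 758 and 4742, and Ighm at 94.8 and 692. Malat1 was at 109620 CPM in the 19 and 53210 in the 91, and Slc34a1, the phosphate transporter of proximal tubule, at 1730 and 548. They came from Ctrl ZT4 (6), Ctrl ZT16 (6) and cKOt ZT4 (7). All 110 were kept, and the pooled CPM below thus include these nuclei. Of the 110, 4 were called doublets (3.64%, against 5.37% of the other nuclei), 5 met the PCT-like rule, 2 the myeloid-like rule and 0 the T/NK-like rule, which by a floor of 3 nuclei allows a share of up to 2.73%.

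**Figure D1:**
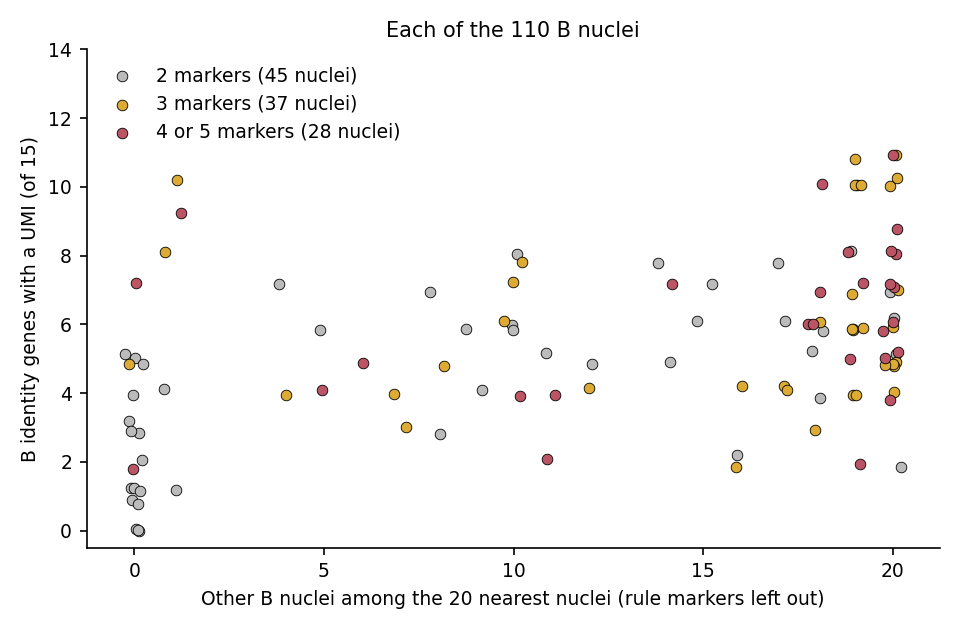
Each point is 1 of the 110 BC nuclei, placed by the number of other BC nuclei among its 20 nearest nuclei (horizontal, shifted slightly at random so that points do not cover each other) and by the number of the 15 identity genes with a UMI (vertical, shifted likewise). Colours give the number of rule markers, and the nuclei at 0 on the horizontal axis are the 19 without BC neighbours, 16 of them with exactly 2 markers.

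Each gene's pooled CPM in BC nuclei was divided by that in the other 81281 nuclei. Of 7661 genes with a mean of the 2 CPM values of at least 20, 13.9% were at least 2-fold higher and 11.7% at least 2-fold lower in BC nuclei. Against T/NK-like nuclei 11.5% of 7699 genes were higher and 11.3% lower, and against myeloid-like nuclei 10.2% of 7691 were higher and 10.5% lower. The medians over all genes were 1.04, 0.994 and 1.06, so the ratios below are read against a centre near 1. Without the 19 nuclei that had no BC neighbour, 1517 genes were higher and 1562 lower than in the other nuclei, against 1065 and 895 with all 110, so the balance turned. This pool held 166189 UMIs, against 250599 with all 110, so each ratio rests on fewer UMIs. The number of genes considered is not given for this alternative, so its counts are not shares, and the cause of the shift was not tested. Higher and lower mean, from here on, past 2-fold in this sense. The lists of genes were chosen with earlier results of these data known.

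All 14 identity genes that could be considered were higher in BC nuclei than in the other nuclei, with a median ratio of 374, and all 14 were higher than in T/NK-like nuclei, with a median of 12.3. Against myeloid-like nuclei 13 of 14 were higher, and Cd72, a surface receptor that also occurs on myeloid cells, was lower (39.9 against 153 CPM). Among all 4141 genes outside the rule that were found in at least 10% of BC nuclei, Ighd, the constant region of IgD, had a ratio of 2067 (1503 to 2854) and Cd22, an inhibitory receptor that binds sialic acid, of 1903 (1326 to 2744), both among the 15 highest. The 15 also held Gm43388, Cacna1i, Fcrl1, Fcmr, Iglc3, 2010309G21Rik, Blk, Gm31243, Pou2af1, Siglecg and Ccr6, with ratios from 1467 down to 525. Most of these are surface receptors or regulators known from B cells, while Cacna1i encodes a calcium channel (25 UMIs in 17 nuclei, ratio 1395) and 3 of the 15 are lncRNAs. Of these Gm31243 lies antisense to the rule marker Bank1, and its ratio is not independent of the rule. These ratios rest on few UMIs in the other nuclei, where Cd22 was at 0.151 CPM.

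The transcription factors of the lists with the most UMIs were Ebf1 and Bach2, the latter a repressor that holds back plasma cell differentiation and is one of the 15 identity genes. Ebf1 had 1124 UMIs in 100 of the 110 nuclei and stood at 4485 CPM, against 227 in T/NK-like, 141 in myeloid-like and 399 in all other nuclei. By library, Ebf1 was at 7118 and 5404 CPM in Ctrl ZT4, 1347 and 3484 in Ctrl ZT16, 5547 and 3454 in cKOt ZT4, and 2221 and 5538 in cKOt ZT16. The libraries of any pair of groups overlapped, except that both Ctrl ZT16 libraries lay below both Ctrl ZT4 libraries. Bach2 had 852 UMIs in 100 nuclei (3400 CPM, 17.6 times that of the other nuclei). Both Ctrl ZT16 libraries (1137 and 1819 CPM) lay below the other 6, which ran from 2221 to 5606 CPM. In Ctrl ZT16 replicate 1, 3 of the 6 BC nuclei were without BC neighbours and held 73.1% of the UMIs. Without the 19 such nuclei Ebf1 was at 7505 and 8058 CPM in Ctrl ZT4, 5002 and 4794 in Ctrl ZT16, 7807 and 5233 in cKOt ZT4, and 2221 and 5538 in cKOt ZT16. Bach2 was then at 5949 and 5708 CPM in Ctrl ZT4, 3595 and 2494 in Ctrl ZT16, 5454 and 4814 in cKOt ZT4, and 2221 and 4984 in cKOt ZT16. Both Ctrl ZT16 libraries then lay below both Ctrl ZT4 and both cKOt ZT4 libraries for both genes, which for Ebf1 and cKOt ZT4 was not so with all nuclei, while cKOt ZT16 replicate 1, with 3 nuclei, was lowest. Both genes were higher in BC nuclei than in the other nuclei of the same library in 8 of 8 libraries.

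Of 16 B cell transcription factors considered, 12 were higher than in the other nuclei and 0 lower, with a median ratio of 8.78. Bcl11a, a zinc finger factor of lymphoid development, had 216 UMIs in 61 nuclei and was 353 times its level in the other nuclei and 612 times that in T/NK-like nuclei. Ikzf3, which encodes Aiolos of the Ikaros family, was 375 times its level in the other nuclei but is shared with T cells, at 1109 CPM in BC and 620 CPM in T/NK-like nuclei. Mef2c was at 1361 CPM in BC and 990 CPM in myeloid-like nuclei. Against T/NK-like nuclei 8 factors were higher (Ebf1, Mef2c, Bcl11a, Tcf4, Pou2f2, Pou2af1, Irf8 and Xbp1), and Ikzf1, Ikaros itself, was lower (495 against 1086 CPM).

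B cell receptor signalling was represented from the receptor to its kinases and the branch to NF-κB. Of 20 genes considered, 19 were higher than in the other nuclei and 0 lower, with a median ratio of 12.6. Prkcb, the protein kinase C of this pathway, had 425 UMIs in 97 nuclei and stood at 1696 CPM, 87.4 times the other nuclei (79.1 to 96.4). The kinase genes Lyn and Syk, which act first after the receptor, were at 1305 and 926 CPM, Blnk, the adaptor they act on, at 459 CPM and Btk at 215 CPM. Myeloid cells use several of the same molecules, and Lyn was at 1207 CPM and Prkcb at 1168 CPM in myeloid-like nuclei. Against these nuclei 6 of 21 genes were higher, among them Syk, Malt1, Cd22 and Rasgrp3, and 0 were lower. Against T/NK-like nuclei 14 were higher and 1, Pik3cd, was lower.

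Antigen presentation genes were abundant. Of 12 MHC class II presentation genes considered 12 were higher than in the other nuclei, with a median ratio of 27.6. Cd74, the invariant chain, was found in 76 BC nuclei at 786 CPM, H2-Aa in 53 at 327 CPM and Ciita, the master regulator of these genes, in 47 at 283 CPM. Myeloid-like nuclei had more of Cd74 (1259 CPM), H2-Aa (549 CPM) and Ciita (423 CPM), none past 2-fold. H2-Eb1, H2-Ab1 and Cd86 were lower in BC than in myeloid-like nuclei, whereas H2-Ob, H2-DMb2 and Cd40 were higher. H2-Ob, which encodes a chain of H2-O, the inhibitor of peptide loading known from B cells, was at 231 CPM in BC and 13.6 CPM in myeloid-like nuclei, and H2-DMb2 at 79.8 and 3.80 CPM. Over 13 genes the median ratio to myeloid-like nuclei was 0.641.

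**Figure D2:**
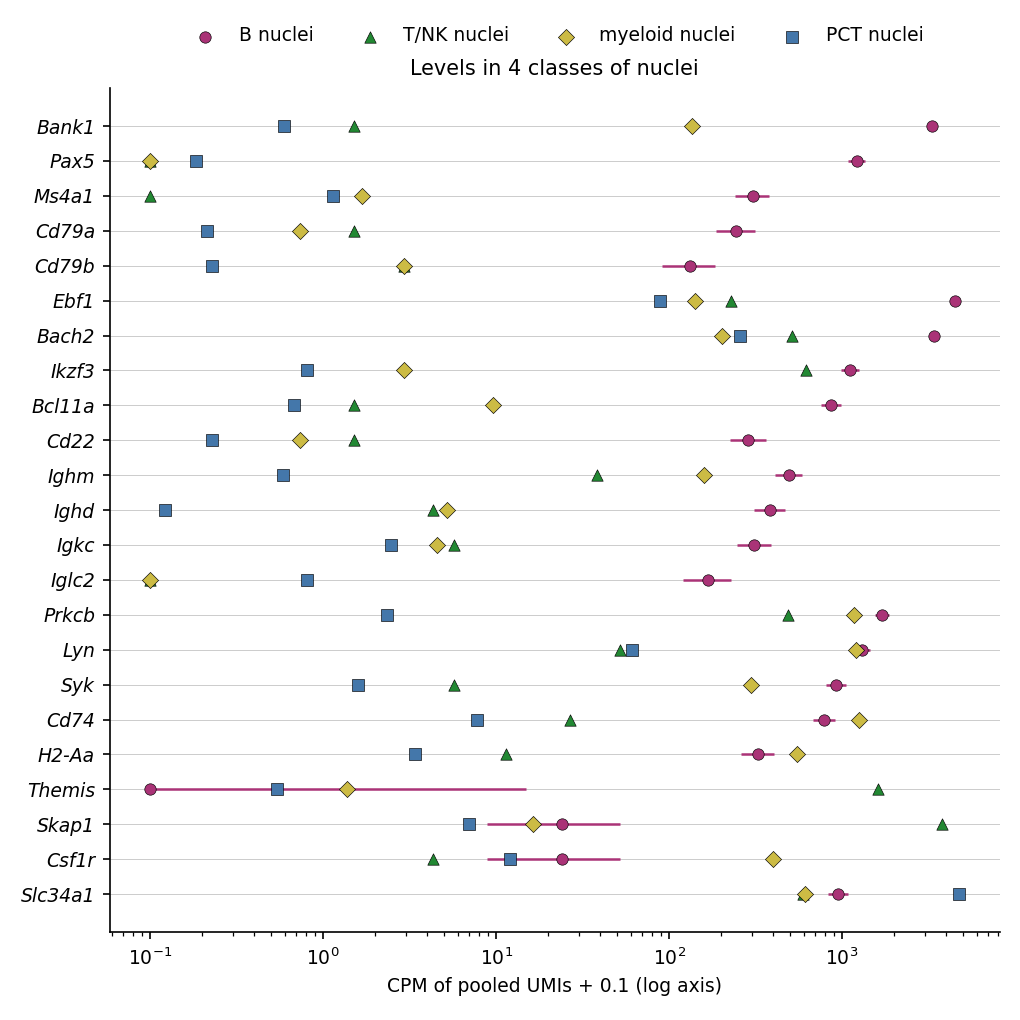
Pooled CPM plus 0.1 (horizontal, log axis) of 23 genes in BC, T/NK-like, myeloid-like and PCT-like nuclei, with 95% Poisson intervals as lines for BC nuclei. The 5 rule markers at the top chose the BC nuclei, Ebf1 stood at 4485 CPM in BC nuclei and 227 CPM in T/NK-like nuclei, and Lyn, Cd74 and H2-Aa lay close to the myeloid-like nuclei.

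Of 11 trafficking and survival genes considered 10 were higher than in the other nuclei, with a median ratio of 46.6, and Bcl2l1 was lower (79.8 against 196 CPM). The chemokine receptor genes Ccr6 and Cxcr5 had 23 UMIs in 16 nuclei and 19 UMIs in 17 nuclei. Tnfrsf13c, which encodes the BAFF receptor, had 9 UMIs in 7 nuclei, at the sparse end of these data. Against T/NK-like nuclei Ccr6, Cxcr5, Tnfrsf13b and S1pr1 were among 5 that were higher, and Itgb7 was lower.

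Immunoglobulin transcripts were mainly of the unswitched classes. Ighm, the constant region of IgM, had 123 UMIs in 64 nuclei, and Ighd had 96 UMIs in 54. Both were found in 30 nuclei, Ighm alone in 34, Ighd alone in 24 and neither in 22. In myeloid-like nuclei Ighm was at 158 CPM and Ighd at 5.07 CPM, and in BC nuclei at 491 and 383 CPM. By library Ighm was at 548 and 578 CPM in Ctrl ZT4, 168 and 487 in Ctrl ZT16, 659 and 388 in cKOt ZT4, and 463 and 692 in cKOt ZT16, and 1 library, Ctrl ZT16 replicate 1, lay below the rest (469 CPM, on 3 UMIs, in its nuclei with BC neighbours). Of the switched classes Ighg1, Ighg2b and Ighe had 0 UMIs, Ighg2c and Ighg3 had 2 each, and Igha had 9 UMIs in 2 nuclei, of which 1 nucleus held 8. By a floor of 3 UMIs, a count of 0 allows up to 12.0 CPM at this depth.

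Both light chain types were found. The kappa gene Igkc had 78 UMIs in 44 nuclei, and of the lambda genes Iglc2 had 42 UMIs in 32, Iglc3 19 in 16 and Iglc1 8 in 7. The lambda constant genes are related, and how their UMIs divide among them was not examined, so the sum was used. Kappa alone was found in 23 nuclei, lambda alone in 29, both in 21 and neither in 37. A B cell usually carries 1 light chain type, and in mice most carry kappa. Of the 52 nuclei with 1 type only, 44.2% had kappa (exact binomial interval 30.5 to 58.7%). In PCT-like nuclei kappa alone was found in 1.39% and lambda alone in 0.587%, both far below the shares of 20.9% and 26.4% in BC nuclei. With at least 2 UMIs asked of a chain, kappa alone was found in 13 nuclei, lambda alone in 8, both in 4 and neither in 85, so the order of the types turned. Of the 21 nuclei with both types 1 was called a doublet. The lncRNA Gm30211 (56 UMIs in 34 nuclei, 398 times the other nuclei) overlaps Igkc on the same strand, so reads in the shared part cannot be told apart, and 2010309G21Rik (29 UMIs in 18 nuclei) lies antisense to Iglc1 and Iglc3. The part of these overlaps in the balance of the types was not tested.

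Markers of B cell subsets were dominated by those of follicular cells. The 6 follicular genes (among them Ighd, Fcer2a, Cxcr5, Ccr7 and Klf2) had 240 UMIs in 88 nuclei, 49 nuclei had at least 2 of the 6, and 5 of 5 genes considered were higher than in the other nuclei, with a median ratio of 467. The marginal zone genes had 63 UMIs in 31 nuclei, 46 of them of Cr2, the complement receptor that follicular cells also carry. Fcer2a, which encodes the IgE receptor CD23, was found in 28 nuclei and Cr2 in 21, with 8 nuclei in common. The B-1 genes had 8 UMIs in 5 nuclei, and the immature B genes 4 UMIs, with Rag1 and Rag2 at 0. Germinal centre genes had 62 UMIs, of which 51 were of Bcl6, whose 204 CPM compared with 143 CPM in the other nuclei. Plasma cell genes had 23 UMIs in 15 nuclei, Jchain among them with 1 UMI, and 1 nucleus had at least 3 of these 6 genes. Of the dividing cell genes only Mki67 was found, with 1 UMI.

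**Figure D3:**
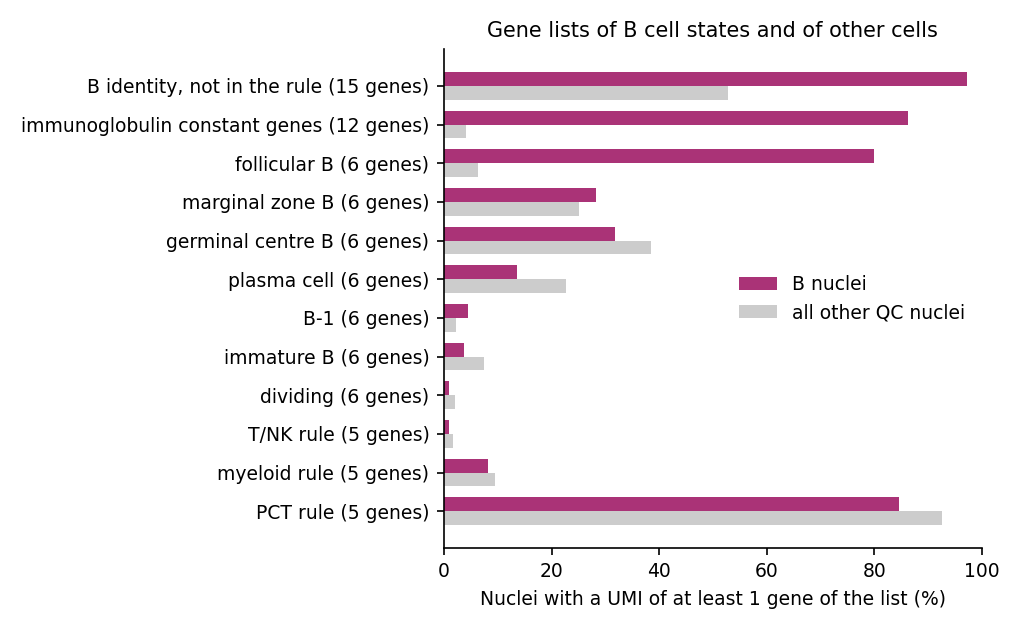
Bars give the percentage of BC nuclei (purple) and of all other nuclei (grey) with a UMI of at least 1 gene of each list. Follicular B genes were found in 80.0% of BC nuclei and 6.24% of the others, plasma cell genes in 13.6% and 22.6% (at 91.8 and 64.8 CPM, so the order turned per UMI), and the rule genes of proximal tubule (PCT) in 84.5% and 92.6%. The shares are not matched for depth, with medians of 1653 UMIs in BC nuclei and 3686 UMIs in the others.

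Of the lncRNAs, 1550 had a UMI in BC nuclei, next to 12095 protein-coding genes. The lncRNAs together took 10.6% of the UMIs of BC nuclei (7.56 to 14.4% by library) and 16.0% of those of the other nuclei (14.5 to 17.0%). The share was lower than in the other nuclei of the same library in 8 of 8 libraries, but it was like that of T/NK-like (10.1%) and myeloid-like nuclei (10.9%). Malat1 accounted for most of it, with 7.22% of the UMIs in BC nuclei and 12.6% in the other nuclei. Without Malat1 the shares were 3.33% and 3.36%. The 19 nuclei without BC neighbours, with their high Malat1, are part of the first value.

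Among lncRNAs found in at least 5% of BC nuclei, 232 in all, Gm43388 had the highest ratio to the other nuclei, 1467 (1048 to 2052), with 73 UMIs in 44 nuclei and 0 in T/NK-like and myeloid-like nuclei. It overlaps the gene model Gm42870 on the other strand. Of 288 lncRNAs with a mean of at least 20 CPM, 60 (20.8%) were higher and 52 (18.1%) lower than in the other nuclei, against 13.9% and 11.7% of all genes. Gm15987, antisense to Clec2g, had the most UMIs of the 10 highest, with 195 in 63 nuclei. By library Gm15987 was at 1408 and 485 CPM in Ctrl ZT4, 421 and 1153 in Ctrl ZT16, 1075 and 204 in cKOt ZT4, and 833 and 1384 in cKOt ZT16. In each group 1 library was at least 1.5 times the other. Gm31243 had 118 UMIs in 55 nuclei and lies antisense to Bank1, and Gm12064, with 9 UMIs in 9 nuclei, lies antisense to Bcl11a. Whether the counting used strand is given in neither the labels nor the methods, so UMIs of Gm31243 cannot be told apart from those of Bank1, which chose the nuclei. BE692007, antisense to Ms4a6c, was shared with T/NK-like nuclei (451 and 339 CPM). Gm47782 had 35 UMIs in only 10 nuclei, with 14 in 1 of them. Gm34225 (8 UMIs in 4 libraries) and Gm33843 (10 UMIs in 2 libraries) rest on few transcripts.

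Against T/NK-like nuclei, the other lymphocytes, genes with a mean CPM of at least 20 were ranked. Ranked genes also had the same order in all libraries that held a UMI of the gene. Genes at 0 in T/NK-like nuclei, such as Pax5, were ranked by the floor of 3 UMIs. Among the ranked genes the highest ratios belonged to Bank1 (2352), Bcl11a (612), Wdfy4 (414), Gm31243 (334), Pax5 (at least 287), Gm15987 (276), Ly86 (227), Cd22 (204), Chst3 (184) and Cd79a (173). Of these Bank1, Pax5 and Cd79a chose the nuclei, and Gm31243 cannot be told apart from Bank1, so their ratios are not results. Bank1 had 1 UMI in T/NK-like nuclei, so its interval runs from 421 to 93025. The lowest were mostly genes known from T or NK cells. Skap1, an adaptor of T cell receptor signalling, was at 23.9 CPM in BC and 3783 CPM in T/NK-like nuclei, the lncRNA Gm2682 at 12.0 and 2738 CPM, and Themis, one of the genes that chose the T/NK-like nuclei, at 0 and 1618 CPM. Lck, Camk4, Cd226, Prkcq, Bcl11b and Ms4a4b were also among the 10 lowest.

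Transcripts of other cell types were found in BC nuclei at levels that differed by type. The 5 T/NK-like rule genes had 6 UMIs, all of Cd247 in 1 nucleus, and Cd3e, Cd3g, Themis and Nkg7 were at 0. The 5 myeloid-like rule genes had 20 UMIs in 9 nuclei (79.8 CPM, against 1819 CPM in myeloid-like nuclei). The 5 proximal tubule genes had 503 UMIs in 93 nuclei, 2007 CPM (1109 to 3708 by library), against 1254 CPM in T/NK-like, 1394 in myeloid-like and 4816 in all other nuclei. The 5 BC nuclei that met the PCT-like rule on these genes were kept, whereas T/NK-like and myeloid-like nuclei that met it were left out. The levels of these classes are thus not fully comparable. The 10 other tubule genes were at 4014 CPM (1943 to 5894 by library), against 3488 in T/NK-like, 3806 in myeloid-like and 5793 in all other nuclei. Kap, the androgen-regulated gene of proximal tubule and 1 of these 10, was found in 106 BC nuclei and was at 1963 CPM, against 1726 CPM in T/NK-like, 1954 in myeloid-like and 1388 in all other nuclei. Endothelial genes were at 387 CPM and plasmacytoid dendritic genes had 196 UMIs, 166 of them of Tcf4, with Siglech at 0. The tubule levels differed with the number of rule markers. The proximal tubule genes were at 3010 CPM in nuclei with 2 markers and 1268 CPM with 3 or more. The other tubule genes were at 4401 and 3729 CPM, a sum of genes with opposite orders. Kap was at 1796 and 2086 CPM, and Slc12a1, also 1 of the 10, at 2022 and 1033 CPM. Of the 364 UMIs of Slc12a1, 95 were in 1 nucleus. The part of tubule transcripts in the levels of other genes was not tested.

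The number of BC nuclei varied between libraries. Ctrl ZT4 held 26 and 22 BC nuclei, or 0.263% (exact binomial interval 0.172 to 0.385%) and 0.221% (0.138 to 0.334%) of nuclei. Ctrl ZT16 held 6 and 15 (0.0563%, 0.0207 to 0.123%, and 0.140%, 0.0782 to 0.230%). cKOt ZT4 held 15 and 18 (0.145%, 0.0809 to 0.238%, and 0.180%, 0.106 to 0.284%), and cKOt ZT16 held 3 and 5 (0.0343%, 0.00706 to 0.1001%, and 0.0456%, 0.0148 to 0.106%). In each genotype both ZT16 libraries lay below both ZT4 libraries, and at each time both cKOt libraries lay below both Ctrl libraries. Pooled over the 2 mice of a group, the intervals were 0.178 to 0.320% in Ctrl ZT4 and 0.0608 to 0.15004% in Ctrl ZT16, and 0.111 to 0.227% in cKOt ZT4 and 0.0175 to 0.0799% in cKOt ZT16. Those of the times did not overlap within a genotype, but they cover counting error only and not the spread between mice. The mean shares were 0.242 ± 0.0298% (SD, n = 2) in Ctrl ZT4, 0.0980 ± 0.0589% in Ctrl ZT16, 0.162 ± 0.0247% in cKOt ZT4 and 0.0399 ± 0.00799% in cKOt ZT16. The groups were not tested against each other, since the nuclei are few and an exact permutation test of 2 mice against 2 cannot give a two-sided p below 0.333.

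**Figure D4:**
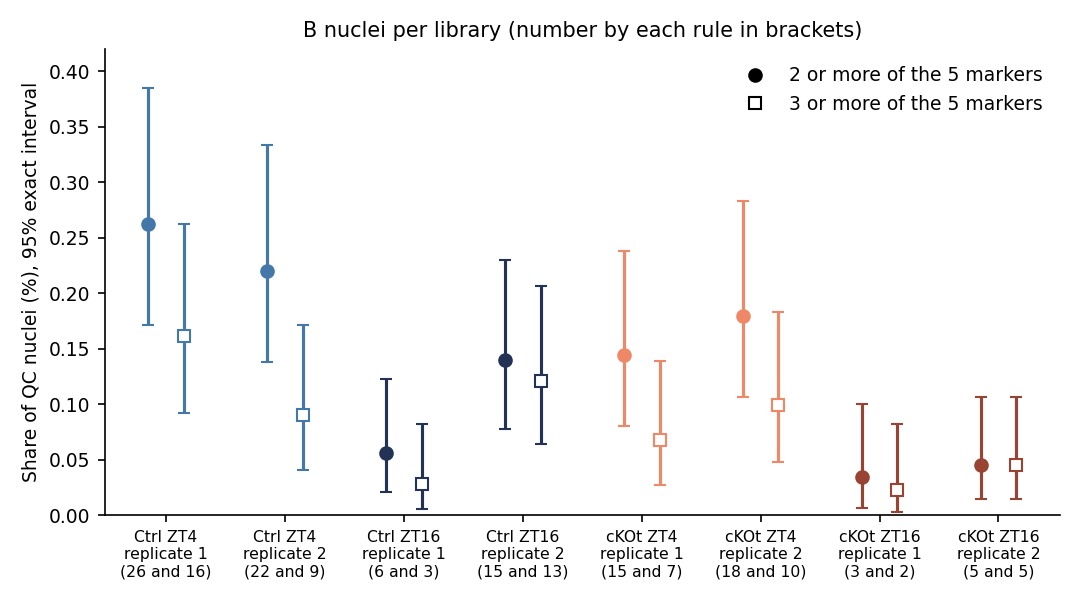
Filled circles give the share of nuclei (%) that were BC nuclei in each of the 8 libraries and open squares the share with at least 3 of the 5 markers, with 95% exact binomial intervals. The circles lie between 0.0343% (cKOt ZT16 replicate 1) and 0.263% (Ctrl ZT4 replicate 1), and the numbers of nuclei by each rule stand in brackets.

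The shares of T/NK-like nuclei shared part of this order. They were 0.404 and 0.491% in Ctrl ZT4, 0.404 and 0.447% in Ctrl ZT16, 0.328 and 0.369% in cKOt ZT4 and 0.285 and 0.282% in cKOt ZT16. Both cKOt libraries again lay below both Ctrl libraries at each time, and cKOt ZT16 below cKOt ZT4, whereas Ctrl ZT4 and Ctrl ZT16 overlapped. For each T/NK-like nucleus there were 0.650 and 0.449 BC nuclei in Ctrl ZT4, 0.140 and 0.312 in Ctrl ZT16, 0.441 and 0.486 in cKOt ZT4 and 0.120 and 0.161 in cKOt ZT16. Relative to T/NK-like nuclei, the ZT4 libraries thus lay above the ZT16 libraries of both genotypes, while Ctrl and cKOt libraries overlapped at ZT4 and at ZT16. With at least 3 markers asked for, Ctrl ZT4 held 16 and 9 nuclei, Ctrl ZT16 3 and 13, cKOt ZT4 7 and 10, and cKOt ZT16 2 and 5, and Ctrl ZT16 replicate 2 then lay between the Ctrl ZT4 libraries. Ctrl and cKOt libraries of the same time then overlapped. With each nucleus thinned to 800 UMIs before the rule, the numbers were 24 and 14 in Ctrl ZT4, 3 and 10 in Ctrl ZT16, 11 and 13 in cKOt ZT4, and 2 and 5 in cKOt ZT16. The ZT16 libraries again lay below the ZT4 libraries of their genotype, and Ctrl and cKOt overlapped at ZT16.

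Clock genes were sparse in BC nuclei. The 16 clock genes had 349 UMIs in 65 nuclei (1393 CPM, against 2245 CPM in the other nuclei), and Dbp was at 0. Of 12 considered, 0 were higher and 4, among them Npas2, Hlf and Per2, were lower than in the other nuclei, with a median ratio of 0.619. The level was like that of T/NK-like (1347 CPM) and myeloid-like nuclei (1135 CPM). The median ratios to these were 0.974 and 1.07, with 1 gene higher and 1 lower in each comparison. Arntl, the gene deleted in tubules of cKOt mice, had 4 UMIs in Ctrl ZT4, 6 in Ctrl ZT16, 8 in cKOt ZT4 and 1 in cKOt ZT16. These are 43.5, 95.6, 103 and 55.5 CPM, with intervals that overlap (11.8 to 111, 35.1 to 208, 44.4 to 203 and 1.40 to 309 CPM). In the other nuclei of the same libraries Arntl was at 29.7, 133, 198 and 228 CPM in these groups. A count per gene does not separate transcripts with and without the deleted exon, so Arntl is no check of the deletion here. Clock had 13, 4, 11 and 1 UMIs, and Npas2, whose protein can stand in for CLOCK, 0, 5, 17 and 1. For Npas2 the intervals of Ctrl ZT4 (0 to 40.1 CPM) and cKOt ZT4 (127 to 350 CPM) did not overlap. However, 11 of its 23 UMIs were in 1 nucleus and 17 were in the 19 nuclei without BC neighbours. In the other nuclei Npas2 was at 25.04 CPM in Ctrl ZT4 and 368 CPM in cKOt ZT4, and the part of their transcripts in the values of BC nuclei was not tested.

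**Figure D5:**
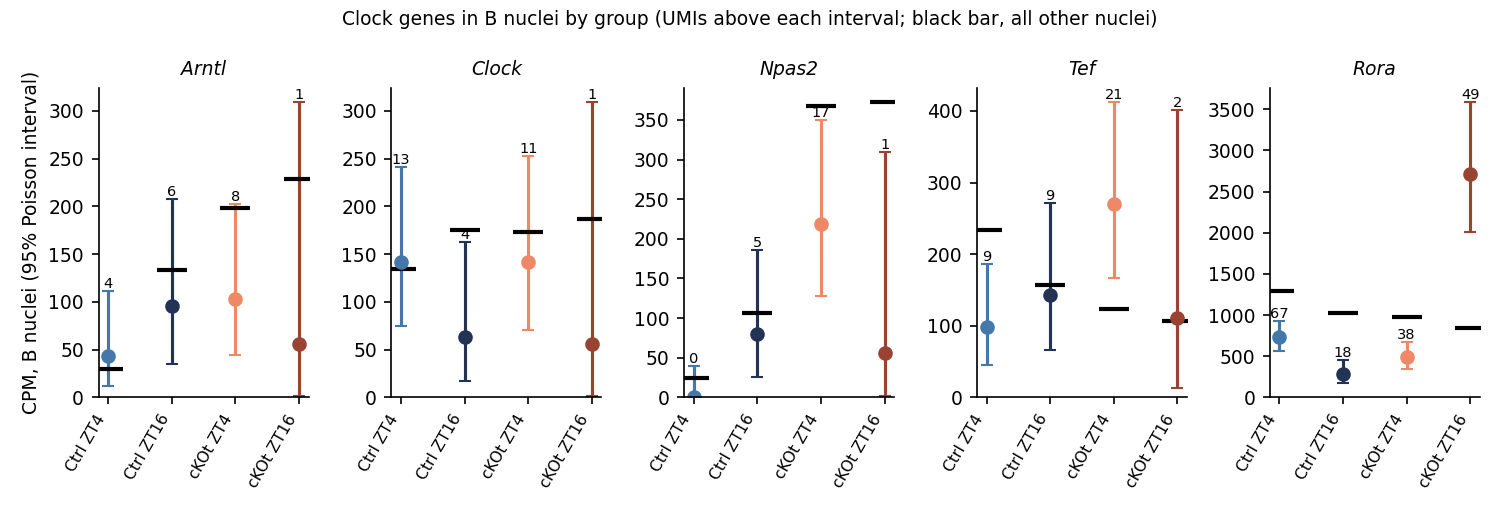
Points give the pooled CPM of 5 clock genes in the BC nuclei of each group, each gene on its own vertical axis, with 95% Poisson intervals and the number of UMIs above them, and black bars the CPM in the other nuclei of the same libraries. Of the 49 Rora UMIs in cKOt ZT16, 46 were in 1 nucleus, and Arntl had 1 to 8 UMIs per group.

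Rora, the nuclear receptor that activates Arntl, held 172 of the 349 clock UMIs, in 31 nuclei. By group Rora had 67, 18, 38 and 49 UMIs. Of the 67 in Ctrl ZT4, 26 and 20 came from a pair of nuclei of replicate 2. The first had 0 BC nuclei among its 20 neighbours, 1 identity gene and a doublet call, and the second had 1 BC neighbour. Of the 49 in cKOt ZT16, 46 came from 1 nucleus of replicate 1. That nucleus had 6923 UMIs, 3 rule markers and 10 identity genes, but only 1 BC neighbour. These 3 nuclei held 92 of the 172 Rora UMIs. For Tef 18 of the 21 UMIs in cKOt ZT4 were likewise in 1 nucleus. The clock genes together were at 1228 CPM in Ctrl ZT4, 1099 in Ctrl ZT16, 1402 in cKOt ZT4 and 3217 in cKOt ZT16. Single libraries set these values, since Ctrl ZT4 was at 495 CPM without replicate 2 and 1752 CPM without replicate 1, and cKOt ZT16 at 554 CPM without replicate 1 and 4997 CPM without replicate 2. With at least 3 markers Ctrl ZT16 was at 559 CPM. The 19 nuclei without BC neighbours held 51.6% of the clock UMIs (2132 CPM, against 1017 CPM in the other 91). The 91 include the Rora-rich nuclei with 1 BC neighbour. At this depth 3 UMIs stand for 32.6 CPM in Ctrl ZT4 and for 166 CPM in cKOt ZT16, so a rhythm or a genotype difference of these genes within B cells could not be read from these nuclei.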

How the data were processed

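Nuclei of frozen kidneys from 8 male mice perfused with PBS, 2 per group, were sorted by DAPI and sequenced with 10x Genomics 3′ chemistry. Reads were processed by the authors in Cell Ranger 7.1.0, and they deposited UMI counts per gene (32285 genes) and called barcode for each library, without normalization. For the reference genome, mm10 stands in the methods and GRCm39 in the submitters' processing notes, so no coordinates were joined to the files. How intronic and antisense reads were treated is not given in the sources used. Gene biotypes and overlaps came from GENCODE M39 by Ensembl identifier (611 of 32285 genes not matched), and promoters from RefSeq (GRCm38.p6).

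Nuclei were kept from 500 genes and 800 UMIs upward if no more than 2% of their UMIs were mitochondrial (81391 of 82784). The 5 rule markers, the gene lists and the classes were chosen with earlier results of these data known. Doublets were scored per library with Scrublet in scanpy 1.11.5 (expected rate 8%) and kept. UMIs were pooled per class, given as CPM with 95% exact Poisson intervals (shares with exact binomial, ratios with conditional binomial intervals), and genes with a mean of 2 CPM values of at least 20 were compared at 2-fold. A class at 0 UMIs was set to 3 UMIs, which gives a lower or upper bound of the ratio. To compare shares across depths, each nucleus was thinned to 800 UMIs. Neighbours were found on 2000 variable genes without the rule markers. The ratio step was tested on simulated data.

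Genes were named by a rule: the rule markers, the lists by role, the 15 genes outside the rule with the highest ratio found in at least 10% of BC nuclei, the 10 lncRNAs with the highest ratio found in at least 5%, and the 10 highest and 10 lowest against T/NK-like nuclei. Those against T/NK-like nuclei had the same order in all libraries that held a UMI of the gene. Some genes named by this rule are not reported here, though the counts over lists include them. No test was run, since the nuclei were chosen by their own transcripts and are few. Alternatives were other marker rules, thinning, looser quality control, doublets left out, other limits of CPM, 20 components and each library left out in turn. The scripts ran in Python 3.11.15 (anndata 0.12.19, matplotlib 3.10.9, numpy 2.4.6 and scipy 1.17.1).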

Additional observations from a re-analysis of the deposited data

How the results depend on the processing

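Asking for at least 3 markers left 65 BC nuclei, and at least 2 of the 4 markers other than Bank1 left 69. The share in Ctrl ZT4 was then 0.126% and 0.131%, 0.191% with nuclei thinned before the rule and 0.273% with looser quality control, and that in cKOt ZT4 was 0.0833%, 0.0931% and 0.118% with thinning. Without the 19 nuclei that had no BC neighbour, an alternative chosen after the data were seen, these shares were 0.211% and 0.127%. The genes lower than in the other nuclei numbered 895, and 1443 with at least 3 markers, 1347 without Bank1 in the rule and 1562 without the 19 nuclei. With a mean of at least 50 CPM, 581 genes were higher and 465 lower than in the other nuclei, and 443 higher and 408 lower than in T/NK-like nuclei. With at least 5 CPM the numbers were 1989, 1765, 1891 and 1733. These counts stand without the numbers of genes considered, which depend on the nuclei pooled and the limit, so they are not shares. The clock genes in Ctrl ZT16 were at 559 CPM with at least 3 markers and at 562 CPM without the 19 nuclei, which also put cKOt ZT4 at 760 CPM. Light chains with at least 2 UMIs gave 13, 8, 4 and 85 nuclei (kappa, lambda, both, neither), and 11 nuclei had neither with at least 3 markers. The cause of these shifts was not tested. With each library left out in turn the number of BC nuclei ran from 84 to 107, and the clock genes from 495 CPM (without replicate 2) to 1752 CPM (without replicate 1) in Ctrl ZT4 and from 554 CPM (without replicate 1) to 4997 CPM (without replicate 2) in cKOt ZT16. Ratios were recomputed for 25 genes, the 15 highest (Gm31243, antisense to Bank1, among them) and the other identity genes, and all 25 stayed past 2-fold under the other marker rules, without doublets, without members that met the rule of another cell type, without the 19 nuclei and without each library in turn. They were not recomputed under the other settings. Of the 1065 genes higher than in the other nuclei, 89.1% were kept without Ctrl ZT4 replicate 1, 94.0% without the 19 nuclei and 54.6% with a mean of at least 50 CPM. No paired analysis was possible because no test was run and equal replicate numbers mark different mice that nothing in the labels ties together.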

Other observations

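Nuclei with some plasma cell transcripts were found outside the BC nuclei. Plasma cells lose Pax5 and most surface markers of B cells, and the 5 markers would not find them. Jchain, which links antibodies of the IgA and IgM classes, together with at least 10 light chain UMIs was found in 22 nuclei, a rule chosen after the values were seen. None of them was a BC nucleus (18 had 0 rule markers and 4 had 1), and 7 libraries held them. Of the 22, 21 had Igha (276 UMIs) and 17 had Xbp1, the factor of antibody secretion, but only 6 had Prdm1 and 2 had Mzb1, which are also known from plasma cells, and 11 had Ebf1. Jchain (129 UMIs) and Igkc (369 UMIs) chose these nuclei. By group they numbered 5 in Ctrl ZT4, 8 in Ctrl ZT16, 5 in cKOt ZT4 and 4 in cKOt ZT16. These nuclei held 20.2% of the Igkc UMIs outside the BC nuclei.

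A further 59 nuclei had 1 rule marker and at least 3 identity genes. Their median was 6872 UMIs, 15 of them had Ebf1, 8 had Ighm and 15 met the myeloid-like rule. By group they numbered 15 in Ctrl ZT4, 19 in Ctrl ZT16, 11 in cKOt ZT4 and 14 in cKOt ZT16.

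Ms4a1 outside the BC nuclei was at 0.657 CPM in Ctrl ZT4 replicate 1 and 0.441 CPM in cKOt ZT4 replicate 1, and at 1.34 to 1.94 CPM in the other 6 libraries.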
